A study of Mus musculus with 2 samples.

Results

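The interferon-stimulated antiviral genes are a set of genes whose RNA is induced by type I interferons and whose products sense viral nucleic acid or block virus replication. They were followed here in mouse bone marrow cells that carried the RUNX1 frameshift mutant S291fs with GFP on 1 vector. The members were chosen by symbol, from a list of 39, and 38 of them were among the 32285 genes of the matrices; Mx1 was not analysed here. 2 groups were compared, and the RUNX1 mutant was present in both. Wild-type (WT) marrow cells carried an intact Phf6 gene, and knockout (KO) marrow cells lacked it; PHF6, a nuclear protein with PHD-like zinc fingers, is mutated in some leukaemias. GFP-positive cells had been transplanted, and GFP-positive, lineage-negative (Lin-) cells were sorted from recipient marrow 8 weeks later. The number of mice pooled, their strain and age, and the part of Phf6 that is deleted were not stated in the sources used here.

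In type I interferon signalling, interferon alpha or beta binds the receptor IFNAR1-IFNAR2, and the kinases JAK1 and TYK2 pass the signal on to the factor ISGF3, which contains STAT2 and IRF9. ISGF3 binds the interferon-stimulated response element in the promoters of its targets. In bone marrow, interferon is known to bring resting haematopoietic stem cells into division, and most blood cell types can respond to it.

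Each group was a single library, so the values below compare 2 libraries, and no p-value or error between mice can be given. The WT library held 5287 barcodes with 131667969 UMIs (unique molecular identifiers, each a counted molecule of RNA), and the KO library held 5260 with 120408100. After filtering, 4478 WT cells (median 24800 UMIs) and 4709 KO cells (median 21428) were kept; 7 kept barcodes occurred in both libraries. Levels are counts per 1000000 UMIs (CPM), and ratios are log2 of KO over WT. All intervals are exact 95% intervals that cover counting error only, and UMIs that gather in few cells vary more than they allow. Phf6 had 41.7 CPM in the WT and 20.7 in the KO library, a log2 ratio of -1.01; counts at the 3′ end test a deletion only if it lies there. Summed markers of plasma cells were 774 CPM in WT and 6.17 in KO, those of eosinophils 366 and 42.8, those of erythroid cells 834 and 407, and those of T or NK cells 52.7 and 35.1, so the cell mix differed between the libraries. Although the sort was for Lin- cells, 67 WT and 50 KO cells carried B cell markers and 53 WT cells plasma cell markers.

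Over all kept cells, the antiviral genes stood higher in the KO library. Their summed level was 809 CPM in WT and 1214 CPM in KO cells, a log2 ratio of 0.59 (0.57 to 0.60). Of the 38 genes, 35 reached the minimum of 5 CPM over both libraries and 50 UMIs. Of these 35, 21 were at least 1.5-fold higher in KO cells and 0 were at least 1.5-fold lower, where 2.59% of the 10065 genes at this minimum were higher and 1.47% lower. The ratio was above 0 for each of the 35, and their median log2 ratio was 0.65, against 0.07 over all 10065 genes. The ratio differed with level. Of the 17 members with a mean of at least 20 CPM, 7 were at least 1.5-fold higher, with a median of 0.49 and a range of 0.06 to 0.94. Of the 18 members below it, 14 were, with a median of 0.99 and a range of 0.42 to 2.85. Among the 35, Ifit1, Oasl1, Ifi44 and Cxcl10 were under 5 CPM in WT cells and reached the minimum through their KO level. These 4 had to be higher in KO cells. All 4 are among the 21 and among the 14 of the 18, so both counts depend partly on the minimum. No share over all genes was computed for the 2 level groups. With no minimum, 24 of the 38 were at least 1.5-fold higher, where 12.4% of the 21465 genes with a UMI in each library were, and the ratio was above 0 for all 38. Under 7 other settings for cells and scaling, 12 of the 21 genes stayed at least 1.5-fold higher in each; where one of the other 9 did not, the value stands beside that gene below.

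**Figure D1:**
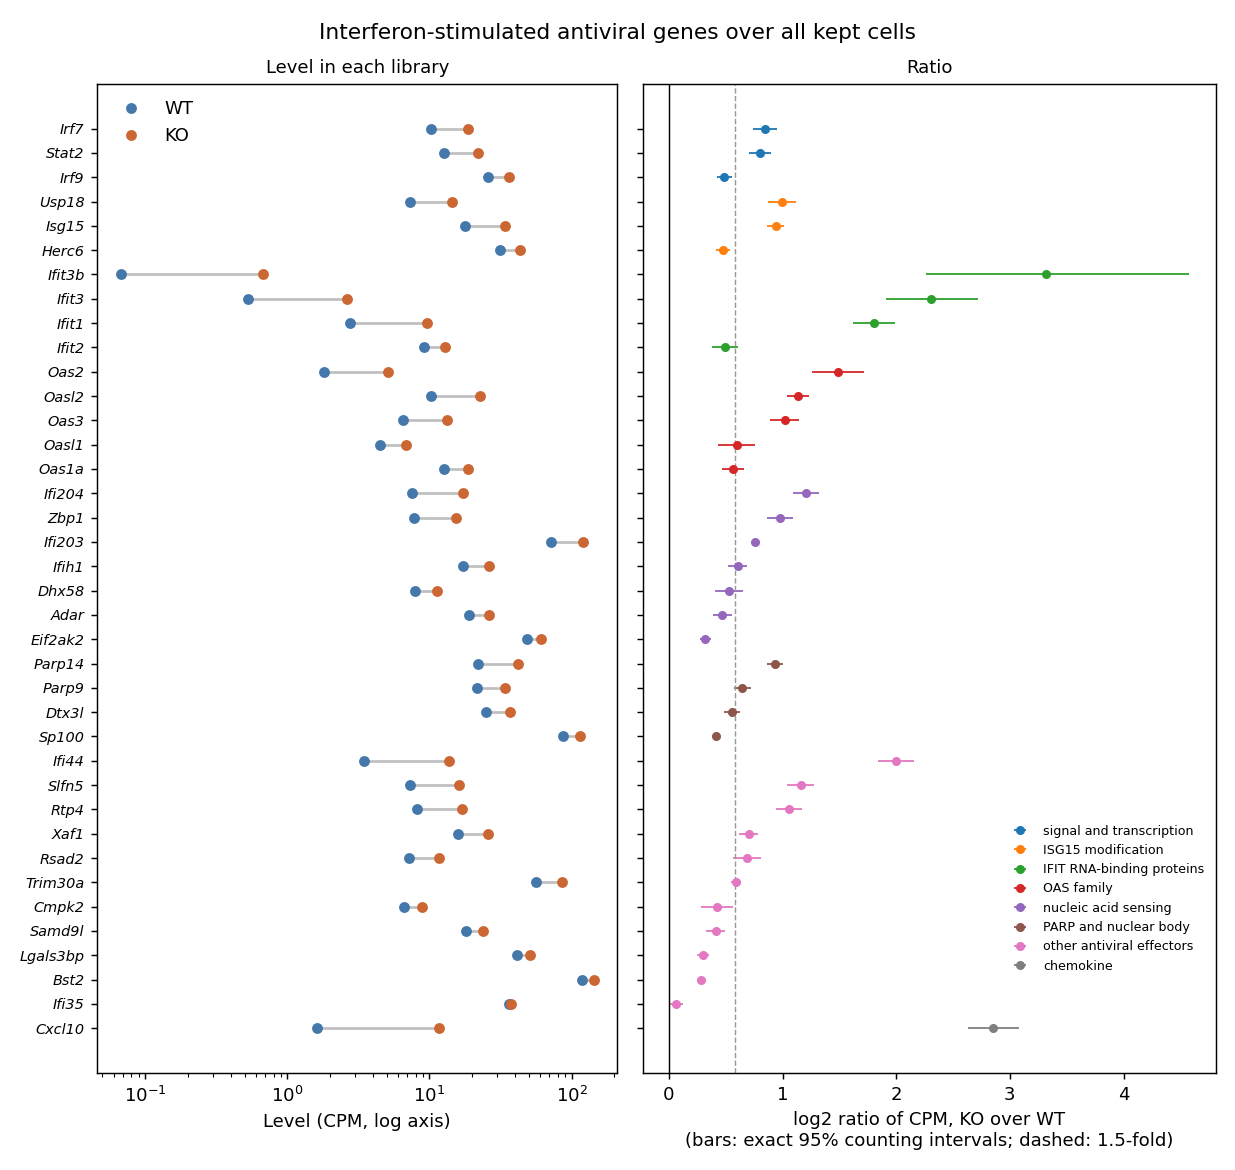
Level of each of the 38 genes in the WT and KO libraries (left, CPM, log axis) and their log2 ratio, KO over WT (right; bars are exact 95% counting intervals, the dashed line is 1.5-fold), grouped by role. All points lie to the right of 0, from 0.06 for Ifi35 to 3.32 for Ifit3b, which rests on 8 WT and 74 KO UMIs.

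The promoters of many of these genes hold letters that match the core of the element that ISGF3 binds. RefSeq promoter windows on GRCm38.p6, from 250 bases before to 50 after the start, matched 30 of the 38 genes. The core of the response element, searched on both strands as GAAA, any 2 bases and GAAA again, was in 15 of the 30, against 3.99% of 27025 genes with a window of the same length. A second motif, the core of the gamma-activated sequence, was searched as TTCNNNGAA and was in 6 of the 30 against 9.55%. The following 8 stretches are from 8 of the 13 genes with a match of the first motif wholly upstream of the start, chosen as examples after the values were seen to show how the letters lie; Bst2, Ifi203, Oas1a, Slfn5 and Trim30a are the others. Each is written 5′ to 3′ on the strand of the gene, with the motif in capitals; where it lies on the other strand it reads TTTC, 2 bases and TTTC.
Isg15: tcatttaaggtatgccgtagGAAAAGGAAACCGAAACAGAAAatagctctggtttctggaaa
Ifit1: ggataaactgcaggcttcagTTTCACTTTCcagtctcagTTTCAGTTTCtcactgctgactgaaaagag
Ifit3: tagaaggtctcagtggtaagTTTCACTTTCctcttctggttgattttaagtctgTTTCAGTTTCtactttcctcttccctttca
Ifit3b: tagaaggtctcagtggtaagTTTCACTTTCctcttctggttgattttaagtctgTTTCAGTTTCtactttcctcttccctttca
Cxcl10: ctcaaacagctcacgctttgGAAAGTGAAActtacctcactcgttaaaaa
Rsad2: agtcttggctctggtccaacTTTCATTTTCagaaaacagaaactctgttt
Oas3: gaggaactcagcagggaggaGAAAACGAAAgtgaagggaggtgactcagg
Stat2: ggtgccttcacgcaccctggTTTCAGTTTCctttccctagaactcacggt
The stretches lie at chr4:156200855-156200916 (minus strand), chr19:34640765-34640833 (plus), chr19:34583353-34583436 (plus), chr19:34607749-34607832 (plus), chr5:92349073-92349122 (minus), chr12:26456543-26456592 (minus), chr5:120777705-120777754 (minus) and chr10:128270256-128270305 (plus). Isg15 had 3 matches that overlap each other. Ifit1 and Ifit3 had 2 separate ones, and the 84 bases of Ifit3 and Ifit3b shown here differed at 0 positions. Of the 13 measured members with the first motif, 10 were at least 1.5-fold higher in KO cells (median log2 ratio 0.76). Of the 15 measured members whose window lacked these letters, 5 were (median 0.49). Over all 10065 genes at the minimum, with or without a window, the share was 2.59%. Ifit1 and Cxcl10 in the first group and Ifi44 and Oasl1 in the second reached the minimum through their KO level. Whether the motif bears on the ratio was not tested. Ifi44, Oasl2 and Irf7 were among those without a match.

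Of the factors that carry the signal into the nucleus, 3 are members. Irf9, the DNA-binding subunit of ISGF3, stood at 25.7 CPM in WT against 36.1 CPM in KO cells (log2 ratio 0.49, 0.42 to 0.56). Stat2, its transactivating subunit, stood at 12.6 and 22.0 CPM (0.80, 0.71 to 0.90). Irf7, which drives a second wave of interferon transcription, stood at 10.3 and 18.6 CPM (0.85, 0.74 to 0.95). All 3 were higher in KO cells, with Irf9 under and the others over 1.5-fold. With clusters weighted alike, Stat2 fell under 1.5-fold, at 0.48, and Irf9 was at 0.25. Stat2 was higher in 21 of the 22 cell clusters that held at least 20 of its UMIs.

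The ISG15 system attaches a ubiquitin-like protein to other proteins during infection. Isg15 (ENSMUSG00000035692, GRCm38 chromosome 4, 156199424 to 156200818, minus strand), the modifier itself, stood at 17.7 CPM in WT against 34.0 CPM in KO cells (log2 ratio 0.94, 0.86 to 1.02), and it was higher in KO cells in 21 of 21 clusters. Usp18, which removes ISG15 and dampens the receptor, stood at 7.25 and 14.4 CPM (0.99, 0.87 to 1.12). Herc6, the mouse ligase of this pathway, stood at 31.4 and 43.6 CPM (0.47, 0.41 to 0.54). Its ratio was under 1.5-fold, but it too was higher in each of the 21 clusters that could be compared.

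The 4 IFIT genes, whose products bind viral RNA that lacks the host cap pattern, lie together on chromosome 19 (34550694 to 34650009). Ifit1 stood at 2.74 CPM in WT against 9.58 CPM in KO cells (log2 ratio 1.80, 1.62 to 1.99) and was higher in 15 of 15 clusters. Ifit2 stood at 9.15 and 12.9 CPM (0.49, 0.38 to 0.61) and was higher in 14 of 20. Ifit3 had 63 WT and 289 KO UMIs and Ifit3b had 8 and 74, both below the minimum level. The longest transcripts of Ifit3 and Ifit3b agree at 98.0% of aligned bases, so how reads were split between these 2 genes is uncertain.

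The OAS genes encode enzymes that make 2′-5′ oligoadenylate and so activate RNase L, or relatives without that activity. Oasl2 (chromosome 5, 114896936 to 114912234, plus strand) stood at 10.3 CPM in WT against 22.6 CPM in KO cells (log2 ratio 1.13, 1.03 to 1.23). Oas3 stood at 6.56 and 13.3 CPM (1.02, 0.89 to 1.15), and it was higher in 19 of 19 clusters. Oas1a stood at 12.6 and 18.6 CPM (0.56, 0.47 to 0.66). Its longest transcript and that of Oas1g agree at 97.5% of aligned bases, so its value is uncertain. Oasl1 stood at 4.50 and 6.80 CPM (0.60, 0.43 to 0.76), and was under 1.5-fold with TMM factors (0.53), a median of ratios (0.53), doublets kept (0.57) or the richest 5% of cells left out (0.22). Oas2, with 217 WT and 564 KO UMIs, stayed under the minimum level, at a mean of 3.47 CPM. Of the 4 OAS genes at the minimum, 3 were at least 1.5-fold higher in KO cells.

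Genes that sense nucleic acid or edit it covered a wide range of ratios. Ifi204 (chromosome 1, 173747293 to 173766943, minus strand), a DNA sensor of the IFI200 family, stood at 7.49 CPM in WT against 17.3 CPM in KO cells (log2 ratio 1.21, 1.09 to 1.32). Its relative Ifi203, also on chromosome 1, stood at 71.4 and 121 CPM (0.76, 0.72 to 0.80). Zbp1, a sensor of Z-form nucleic acid that can start cell death, stood at 7.76 and 15.3 CPM (0.98, 0.86 to 1.1). These 3 were over 1.5-fold higher in KO cells, as was Ifih1, which encodes the RNA sensor MDA5, at 17.4 and 26.4 CPM (0.61, 0.52 to 0.69). With clusters weighted alike, Ifi203 (0.52) and Zbp1 (0.58) were under 1.5-fold, and Ifih1 was under it with TMM factors (0.54), a median of ratios (0.54) or without the richest 5% of cells (0.52). Dhx58, which encodes the related LGP2, stood at 7.90 and 11.4 CPM (0.53, 0.40 to 0.65). Adar, which edits adenosine in double-stranded RNA, stood at 18.9 and 26.2 CPM (0.47, 0.39 to 0.55). Eif2ak2, which encodes the kinase PKR, stood at 49.0 and 61.2 CPM (0.32, 0.27 to 0.37), the smallest ratio of the 7. The gene body of Ifi203 overlaps that of Mndal, also on the minus strand, so reads of the 2 could have been split between them.

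Parp14, Dtx3l and Parp9 lie side by side on chromosome 16 (35832874 to 35972605) and encode ADP-ribosyltransferases and their ubiquitin ligase partner. Parp14 stood at 22.0 CPM in WT against 41.9 CPM in KO cells (log2 ratio 0.93, 0.86 to 1.0). Its neighbours were nearer to each other, with Parp9 at 21.7 and 33.9 CPM (0.65, 0.57 to 0.72) and Dtx3l at 25 and 36.8 (0.56, 0.49 to 0.62). Parp9 was under 1.5-fold with clusters weighted alike (0.52), and at 0.58 with TMM factors, with a median of ratios and without the richest 5% of cells. Sp100, a nuclear body protein, stood at 86.7 and 116 CPM (0.42, 0.38 to 0.45). Parp14 was higher in KO cells in 20 of 21 clusters, and its interval lay above 0 in 18 of them. The gene bodies of Parp9 and Dtx3l overlap, and the use of strand in counting was not stated in the sources read. Irf7, Irf9, Adar and Rtp4 also overlap a neighbouring protein-coding gene.

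The remaining 11 effectors included both the second-highest and the lowest ratio of the 35. Ifi44 (ENSMUSG00000028037, chromosome 3, 151730922 to 151749960, minus strand) stood at 3.46 CPM in WT against 13.8 CPM in KO cells (log2 ratio 2.0, 1.84 to 2.16). In each of the 13 clusters that held at least 20 of its UMIs, it was higher in KO cells with an interval above 0. Ifi35 stood at 36 and 37.7 CPM (0.06, 0.00 to 0.13), and its direction turned under 2 other scalings.

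Slfn5, a member of the Schlafen family, stood at 7.29 CPM in WT against 16.3 CPM in KO cells (log2 ratio 1.16, 1.04 to 1.28). Rtp4 stood at 8.20 and 17 CPM (1.05, 0.94 to 1.17). Xaf1, which promotes apoptosis, stood at 15.9 and 25.8 CPM (0.70, 0.62 to 0.79). These and 2 others were over 1.5-fold higher in KO cells besides Ifi44. Rsad2, which encodes viperin, stood at 7.22 and 11.6 CPM (0.69, 0.56 to 0.81), while its neighbour on chromosome 12, Cmpk2, a nucleotide kinase, stood at 6.60 and 8.85 (0.42, 0.29 to 0.56). Trim30a stood at 56.5 and 85.1 CPM (0.59, 0.55 to 0.64), just over 1.5-fold. It was under it with TMM factors (0.52), a median of ratios (0.52), clusters weighted alike (0.34), a mean over cells (0.52) or the richest 5% of cells left out (0.54). Xaf1 was under it with clusters weighted alike (0.55), and Rsad2 with doublets kept (0.56) or without the richest 5% (0.42). Lower ratios were found for Samd9l, a translation inhibitor, at 18.0 and 23.9 CPM (0.41, 0.33 to 0.49), and for Lgals3bp, a secreted glycoprotein, at 41.6 and 51.3 (0.30, 0.24 to 0.36). Bst2, which encodes the membrane tether tetherin, was the most abundant member (3′ UMI counts do not scale with gene length), at 118 and 143 CPM (0.28, 0.25 to 0.31). Bst2, Sp100 and Ifi203 together held 34.1% of the members' UMIs in WT and 31.3% in KO cells.

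Cxcl10 (ENSMUSG00000034855, chromosome 5, 92346638 to 92348889, minus strand), a chemokine that draws T cells, had the highest ratio of the 35. It had 192 UMIs in WT and 1288 in KO cells, or 1.62 and 11.7 CPM (log2 ratio 2.85, 2.63 to 3.08). These UMIs came from few cells. In WT, 82 of 4478 cells held any, and in KO, 153 of 4709; no cell type here is known to lack the gene, so no background share can be set beside these counts. The 1% of cells richest in Cxcl10 held 80.7% of its UMIs in WT and 90.8% in KO, and a single KO cell held 225, against a highest WT value of 42. Without these 2 cells, a choice made after seeing the data, 150 and 1063 UMIs were left (2.93, 2.68 to 3.19). In KO cells 40.2% of the UMIs lay in cluster 11, a monocyte-like cluster led by Fn1 and Klra2, which also held the cell with 225. The WT cell with 42 lay in cluster 16 (S100a8, S100a9, Fcnb), where 44 WT UMIs were found in all. Ifi44, the next in ratio, had UMIs in 275 WT and 777 KO cells, and its richest 1% of cells held 36% and 24.9% of them. The gene body of Cxcl10 overlaps Art3 on the other strand.

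For a comparison per cell, a random 5000 UMIs were drawn from every cell that had them, 4236 WT and 4510 KO cells; 242 and 199 shallower cells dropped out. The median cell held 4 member UMIs in WT and 5 in KO, and the mean was 4.58 and 6.85. Without thinning, the median was 7.16 member UMIs per 10000 UMIs in WT and 9.82 in KO cells. The upper end of the distribution was further apart than its middle. The 95th percentile was 11 in WT and 17 in KO cells, and the 99th was 20 and 36.9. Cells with more than 11 member UMIs made up 4.91% of WT cells (208 cells, 4.28% to 5.60%) and 12.2% of KO cells (550 cells, 11.3% to 13.2%). Cells with more than 20 made up 0.944% (40 cells) and 3.10% (140 cells). At the lower end, 4.13% of WT and 2.26% of KO cells held 0.

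**Figure D2:**
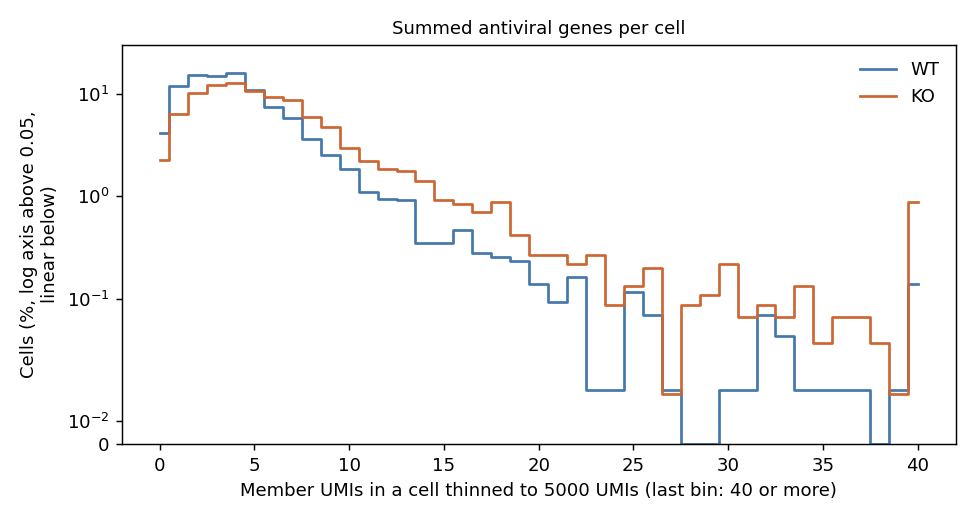
Share of cells (%, log axis above 0.05 and linear below) by the number of member UMIs among 5000 drawn from a cell; the last bin holds 40 or more. The KO line lies above the WT line through most of the upper range, and 0.887% of KO cells against 0.142% of WT cells fall in the last bin.

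The difference was smaller without the cells richest in these genes. The richest 1% of cells held 5.13% of the members' UMIs in WT and 8.42% in KO, and the richest 5% held 16.0% and 21.5%. When the 5% of cells of each library with most member UMIs per 10000 were left out (224 WT and 235 KO cells, a choice made after seeing the data), the summed level was 738 CPM in WT and 1031 in KO cells, and the log2 ratio was 0.48 in place of 0.59. Then 14 of the 32 genes still at the minimum level were at least 1.5-fold higher, where 2.49% of all genes were, and the ratio stayed above 0 for all 35 genes, with the interval above 0 for 33. Some genes lost most of their ratio. The log2 ratio of Cxcl10 went from 2.85 to 1.15, that of Ifit2 from 0.49 to 0.07 and that of Oasl1 from 0.60 to 0.22. The ratio of Slfn5 went from 1.16 to 0.78 and that of Isg15 from 0.94 to 0.69. Others barely moved, such as Rtp4 (1.05 and 1.04), Ifi203 (0.76 and 0.71), Zbp1 (0.98 and 0.95) and Irf9 (0.49 and 0.50). Of the KO cells left out, 87 were HSC/MPP-like (37.0%) and 76 monocyte-like (32.3%), where these classes made up 31.2% and 16.2% of KO cells. In WT they were 70 (31.3%) and 56 (25%), against 23.2% and 14.3% of WT cells.

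**Figure D3:**
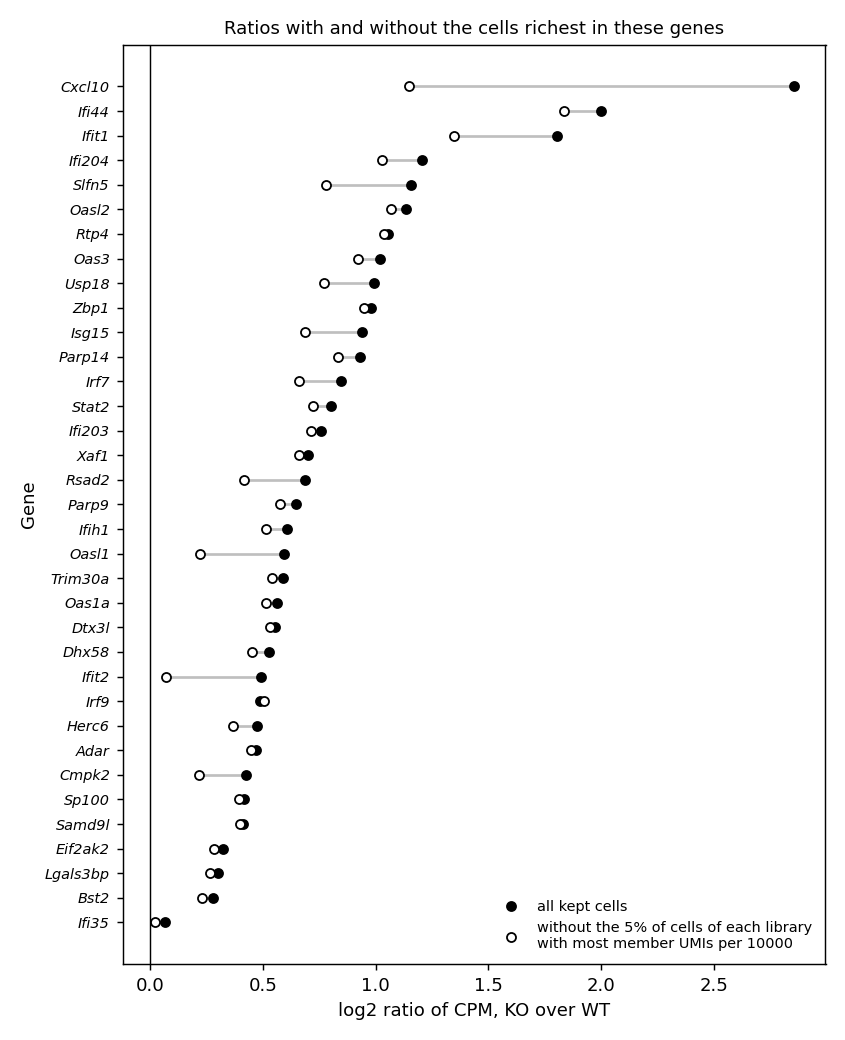
Ratios (log2, KO over WT) of the 35 genes over all kept cells (filled) and without the 5% of cells of each library with most member UMIs per 10000 (open). Cxcl10 moves furthest, from 2.85 to 1.15, while Rtp4 and Irf9 stay in place.

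Cells were sorted into classes by clusters made without the members and without other interferon genes, so that the genes described did not shape the groups. The 24 clusters gave the classes HSC/MPP-like (stem cells and multipotent progenitors), monocyte-like, neutrophil progenitor-like, megakaryocyte-like, erythroid-like, lymphoid progenitor-like, basophil or mast cell-like, B cell-like and plasma cell-like, and 7 clusters stayed unnamed. Of the 22 clusters with at least 50 cells in each library, the summed level was higher in KO cells with an interval above 0 in 19, with log2 ratios from 0.24 to 0.78. The interval lay below 0 in 0 of the 22. The median ratio of the members lay above that of all genes in 20 of the 22. With the 22 clusters weighted alike, which takes out the difference in cell mix between them, the summed ratio was 0.43 in place of 0.59.

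Among the classes with cells in both libraries, the summed level in WT cells was lowest in erythroid-like cells (534 CPM) and neutrophil progenitor-like cells (556 CPM), followed by megakaryocyte-like (655), lymphoid progenitor-like (841) and HSC/MPP-like cells (996). Basophil or mast cell-like cells (1073), monocyte-like cells (1105) and B cell-like cells (1258) were highest; the 53 plasma cell-like cells, all from WT, stood at 389 CPM. The intervals of the first 2 overlapped, as did those of basophil or mast cell-like and monocyte-like cells. By mean level over both libraries, with no minimum, 12 of the 38 genes were highest in monocyte-like, 10 in HSC/MPP-like and 10 in B cell-like cells. B cell-like cells were also lowest for 7 of the 38. That class held 428338 WT and 322692 KO UMIs, and 5 members reached the minimum in it. Many of its ranks thus rest on few UMIs, such as that of Ifit3b, highest there at a mean of 1.55 CPM. Ifi204 was among the 12 that were highest in monocyte-like cells, at 40.3 CPM in WT and 63.1 in KO cells of that class.

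**Figure D4:**
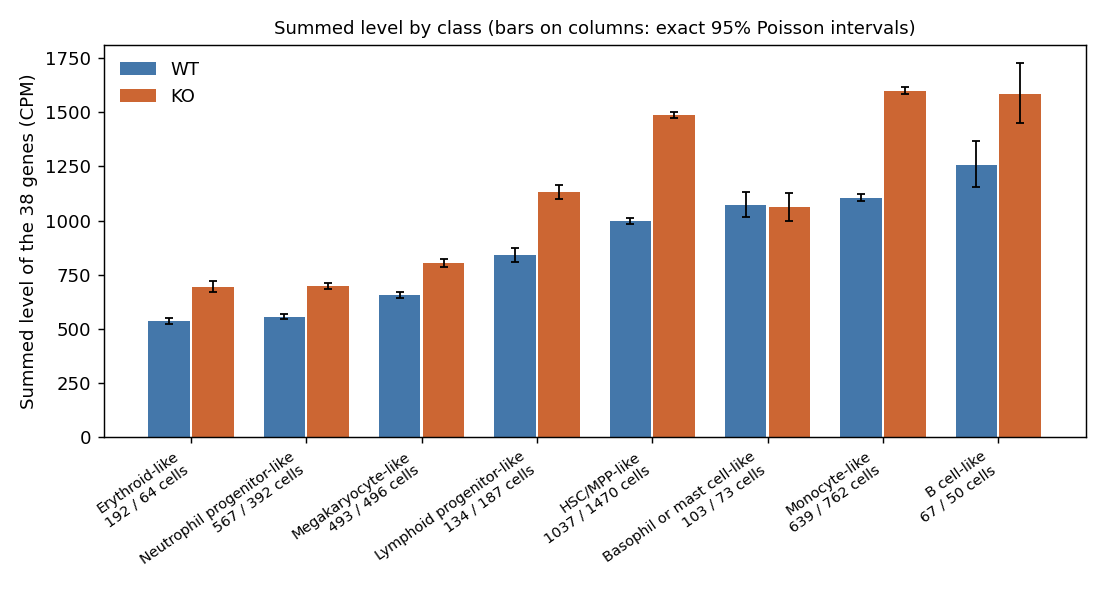
Summed level of the 38 genes (CPM) by class in WT and KO cells; error bars are exact 95% Poisson intervals, and the cell numbers (WT / KO) stand under each class. KO is above WT in every class drawn except the basophil or mast cell-like class, at 1073 and 1060 CPM.

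The genes named within a class below are those with the largest ratios there, picked after their values were seen. A gene under 5 CPM in WT cells of a class reached the minimum only through its KO level and had to be higher there. Among those named with both levels, these were Oas2 in HSC/MPP-like cells, and Cxcl10, Ifit1 and Ifi44 in monocyte-like cells. The others were Ifi44 in lymphoid progenitor-like, Oasl2 in neutrophil progenitor-like and Ifi203 in erythroid-like cells. The counts within classes can include such genes. HSC/MPP-like cells (1037 WT and 1470 KO) had a summed level of 996 and 1489 CPM, a log2 ratio of 0.58 (0.56 to 0.60). Of 34 genes at the minimum level, 20 were at least 1.5-fold higher in KO cells and 0 lower, where 4.54% of all genes in these cells were higher and 1.68% lower. Ifi44 stood at 10.3 and 32.5 CPM (1.66), Ifit1 at 5.71 and 17.8 (1.64) and Oas2, which reached the minimum here, at 4.01 and 9.75 (1.28). Rsad2 stood at 11.1 and 23.7 CPM (1.1) and Stat2 at 11.1 and 23.2 (1.07). Lgals3bp, at 58.8 and 63.2 CPM (0.10), had the lowest ratio. Within this class, cluster 3, led by the stem cell genes Mecom and Hlf, had the highest summed level, 1248 CPM in WT and 1928 in KO cells (0.63, 0.58 to 0.67). There 21 of 35 genes were at least 1.5-fold higher, against 6.0% of all genes. The ratio of the class lay above those of its other clusters, which were 0.43 in cluster 2, 0.26 in cluster 7 and 0.44 in cluster 8. Clusters 2 and 3 held 232 and 245 WT cells against 499 and 468 KO cells. Clusters 7 and 8 held 308 and 252 against 244 and 259. The mix within the class thus differed between the libraries, and its part in the class ratio was not tested. The share of thinned HSC/MPP-like cells with more than 11 member UMIs was 6.86% in WT and 15.3% in KO.

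Monocyte-like cells (639 WT and 762 KO) stood at 1105 and 1601 CPM, a log2 ratio of 0.53 (0.51 to 0.56). Of 33 genes, 19 were at least 1.5-fold higher in KO cells and 0 lower, where 1.67% of all genes were higher and 1.07% lower. Cxcl10 stood at 2.54 and 35.7 CPM (3.81, 3.39 to 4.27), Ifit1 at 1.35 and 9.59 (2.83) and Ifi44 at 2.48 and 10.8 (2.12). Usp18 (1.75), Oas3 (1.60), Oasl1 (1.56) and Isg15 (1.55, from 15.3 to 44.6 CPM) followed. Ifi203, among the most abundant, had a log2 ratio of 0.19 here. Cluster 11 of this class stood at 1732 and 2869 CPM (0.73, 0.68 to 0.78), with 25 of 37 genes at least 1.5-fold higher against 4.44% of all genes. Cluster 5 had a summed ratio of 0.62 (0.58 to 0.66). Cluster 9 (223 WT and 263 KO cells) had one of 0.27 (0.23 to 0.32). In cluster 9, 6 of 29 genes were higher and 1 lower, against 1.81% and 1.73% of all genes. In cluster 11, Cxcl10 stood at 5.0 and 143 CPM, from 15 and 518 UMIs. Without the richest cell of each library it stood at 3.01 and 81.8 CPM there (4.76, 3.82 to 5.90). Thinned monocyte-like cells with more than 11 member UMIs were 9.15% in WT and 21% in KO.

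Lymphoid progenitor-like cells (134 WT and 187 KO) stood at 841 and 1132 CPM, a log2 ratio of 0.43 (0.36 to 0.50). Of 30 genes, 10 were at least 1.5-fold higher and 0 lower, against 5.54% and 4.59% of all genes. Ifi44 stood at 2.50 and 18.2 CPM there, from 8 and 78 UMIs (2.86, 1.81 to 4.12), and Ifi203 at 84.7 and 166 CPM (0.97). In neutrophil progenitor-like cells (567 and 392), the sum was 556 and 699 CPM (0.33, 0.29 to 0.37), and 6 of 25 genes were higher and 0 lower, against 1.67% and 2.05%. Oasl2, at 4.95 and 11.3 CPM (1.19), and Isg15, at 8.56 and 16.9 (0.98), led them. Cxcl10 was under the minimum in this class, with 47 WT and 17 KO UMIs, of which a single WT cell held 42.

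Megakaryocyte-like cells (493 WT and 496 KO) stood at 655 and 802 CPM, a log2 ratio of 0.29 (0.24 to 0.34). Of 25 genes, 3 were at least 1.5-fold higher and 0 lower, against 2.09% and 1.85% of all genes. The 3 were Oasl2 (0.86), Parp14 (0.84) and Stat2 (0.68). Their cluster 13, in which the median cell held 3328 UMIs, stood at 497 and 470 CPM (-0.08, -0.29 to 0.13). Erythroid-like cells (192 and 64) stood at 534 and 694 CPM (0.38, 0.31 to 0.44), with 8 of 26 genes higher and 1 lower, against 9.44% and 1.58%. Ifi203, low in this class, stood at 2.06 and 11.1 CPM (2.43, 1.68 to 3.20), Usp18 had a ratio of 1.43 and Parp14 one of 1.30, while Rsad2 stood at 10.7 and 6.48 CPM (-0.72, -1.41 to -0.09). B cell-like cells (67 and 50) held few UMIs, and 1 of 5 genes at the minimum was higher and 0 lower, against 8.55% and 10.5%; their sum was 1258 and 1584 CPM (0.33, 0.15 to 0.51).

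Basophil or mast cell-like cells (103 WT and 73 KO) were the 1 named class whose summed ratio had an interval that included 0. The sum was 1073 and 1060 CPM, a log2 ratio of -0.02 (-0.13 to 0.10). Of 19 genes, 0 were at least 1.5-fold higher and 1, Parp9, lower, where 6.55% of all genes in this class were higher and 7.02% lower, and the interval of each of the 19 included 0. Phf6 itself had a ratio of 0.04 (-0.53 to 0.60) in these cells, against -0.88 in HSC/MPP-like, -1.13 in monocyte-like, -1.09 in neutrophil progenitor-like and -1.28 in megakaryocyte-like cells; its part in the result was not tested. Under 3 other settings the summed ratio of this class was higher and its interval lay wholly above 0: 0.12 (0.03 to 0.22) with interferon genes kept in clustering, 0.14 (0.07 to 0.20) by marker score and 0.15 (0.06 to 0.24) with doublets kept. Isg15 stood at 28.2 and 36.5 CPM in basophil or mast cell-like cells (0.37, -0.32 to 1.07), and the ratio of 0.98 that this gene had in neutrophil progenitor-like cells lies within that interval. Slfn5, Ifit1 and Oasl2 were under the minimum there, with 22, 14 and 12 UMIs in WT against 6, 0 and 2 in KO cells; a single WT cell held 13 of the 14 of Ifit1.

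**Figure D5:**
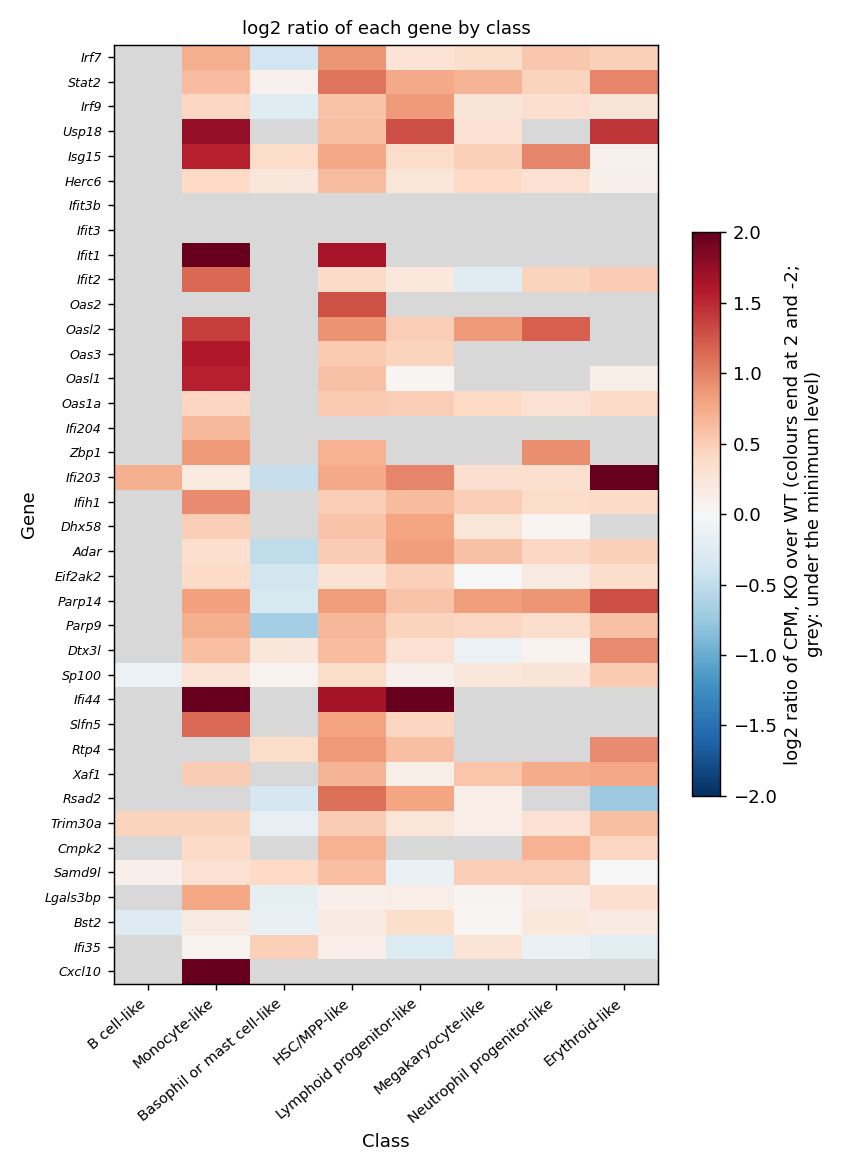
Ratios (log2, KO over WT) of each gene (rows, by role) in each class (columns); colours end at 2 and -2, and grey marks genes under the minimum level in that class. The monocyte-like and HSC/MPP-like columns are red for each measured gene, and the basophil or mast cell-like column holds both signs, from -0.69 for Parp9 to 0.47 for Ifi35.

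Outside the named classes, the highest ratio of any cluster was that of cluster 21 (55 cells in each library), which was led by Gzma, Siglech and Klrd1, markers of both plasmacytoid dendritic and NK cells, and was left unnamed. Its summed level was 1911 CPM in WT and 3285 in KO cells, a log2 ratio of 0.78 (0.69 to 0.87), and 11 of 22 genes were at least 1.5-fold higher, against 9.44% of all genes. Ifit2 had 2 WT and 70 KO UMIs there, 31 of the latter in 1 cell, and Isg15 stood at 26.5 and 130 CPM (2.29, 1.64 to 3.0). A single KO cell held 47 of the 123 KO UMIs of Isg15. Without the richest cell of each library its ratio was 2.08 (1.29 to 2.96). The share of each cell type in cluster 21 was not determined. At resolution 2, a T or NK cell cluster led by Gzma held 24 WT and 16 KO cells. The part of cell mix in the ratio of cluster 21 was not tested. Cluster 18 (66 and 86 cells), led by C1qa, C1qb and Adgre4, had the highest WT level of all, 2335 CPM, and a KO level of 2489 (0.09, -0.03 to 0.21). There 2 of 22 genes were higher and 2 lower, against 8.91% and 6.81%.

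The genes upstream of the members were read from lists of the same pathway. The 20 interferon genes listed had 7 UMIs in WT and 18 in KO cells in all. The interferon alpha genes Ifna1 to Ifna16 that were listed had 0 in both libraries, Ifnb1 had 0 and 1, Ifnab 1 and 1, Ifnk 3 and 16, and Ifng 3 and 0. A count of 0 allows up to 3 counts in a library, and cells outside the sort were not measured. Of the receptors, Ifnar1 stood at 18.6 CPM in WT against 25.2 CPM in KO cells (0.44, 0.36 to 0.52), Ifnar2 stood at 131 and 140 (0.09, 0.06 to 0.12), and the gamma receptor gene Ifngr1 at 188 and 172 (-0.13, -0.16 to -0.11). Ifngr2 had a log2 ratio of 0.24 and Il10rb, shared with other cytokines, 0.23.

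The kinases had log2 ratios of 0.18 for Jak1, 0.31 for Jak2 and 0.27 for Tyk2. Pathway genes at least 1.5-fold higher in KO cells included Irf1 (0.76), the RNA sensor gene Ddx58 (0.70), Tmem173, which encodes STING (0.79), and the signalling brake Socs3 (1.03).

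A wider list of interferon-stimulated genes, many of them also induced by interferon gamma, held 82 symbols, of which 79 were found and 63 reached the minimum. Of these, 22 were at least 1.5-fold higher in KO cells and 0 lower, with a median log2 ratio of 0.46. Of all 10065 genes at the minimum, 2.59% were higher and 1.47% lower, with a median of 0.07. The GTPase gene Iigp1 stood at 4.74 CPM in WT against 28.5 CPM in KO cells (2.59, 2.46 to 2.72), Gvin1 at 3.67 and 11.2 (1.62), Ms4a4c at 37.2 and 81.4 (1.13) and Tgtp2 at 5.55 and 11.9 (1.1). Of 13 measured genes of the NF-kB response, 2 were higher (Relb, 0.63, and Icam1, 0.62) and 0 lower, with a median of 0.33. The shares over all genes were again 2.59% and 1.47%. Among the genes called higher in these lists, Iigp1, Gvin1, Phf11b (4.49 and 7.88 CPM) and Relb were under 5 CPM in WT cells. They reached the minimum through their KO level and had to be higher in KO cells.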

How the data were processed

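Single-cell RNA libraries were made with the Chromium Next GEM 3′ kit v3.1 from sorted cells, 1 per genotype. The deposited matrices hold raw UMI counts per gene and barcode, for barcodes already called as cells. Per the file headers Cell Ranger 6.0.2 was used; the tool named in the submitters' processing notes is Cell Ranger 3.0.1, with the build GRCm38. Which annotation was used was not stated there. Positions were read from GENCODE M21 and promoter sequences from RefSeq (GRCm38.p6).

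Cells with fewer than 500 genes (51 WT, 32 KO) or over 10% mitochondrial UMIs (553, 314) were left out, as were the 224 WT and 221 KO cells with the highest Scrublet scores, 0.8% of barcodes per 1000 in a library; Scrublet's own threshold marked 5 and 89 and was not used. The members and 82 other interferon-stimulated genes were kept out of clustering (2000 variable genes, 30 components, 15 exact neighbours, Leiden resolution 1). A cluster took a class name from markers with a median log2 fold of at least 1, at least 3 of them detected in 25% of its cells. It stayed unnamed where its 10 leading genes held fewer of its markers than of a second class, or held none while its median cell had less than the library's median UMIs divided by 3. A further rule, added after seeing the data, was that fewer than 2 leading genes be known for another cell type, and it removed the dendritic name of cluster 18 and the erythroid name of cluster 15. UMIs were summed per library and class, with exact binomial intervals for ratios, Poisson intervals for levels and Clopper-Pearson intervals for shares. No p-value was computed. Genes needed 5 CPM and 50 UMIs, and a ratio of 1.5-fold counted as higher or lower.

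The members and lists were chosen with earlier results of these data known. Counts over the pathway list as a whole are not reported here. Values of both libraries were to be given for members at 20 CPM or more and for the 6 highest and 6 lowest ratios; the remaining members are given too, so that each is accounted for. Alternatives were stricter cell filters, doublets kept, edgeR TMM factors, a median of ratios, means over cells, clusters weighted alike, other minimum levels, resolutions 0.5 and 2, interferon genes kept in clustering, and marker scores per cell. In 20 simulated draws of 10065 genes with 200 changed, the intervals held the true ratio for 95.2% of unchanged genes. They held it for 95.1%, 95.4%, 95.3% and 95.7% of those changed 1.5-, 2-, 3- and 4-fold. The draws were Poisson counts, the model that the intervals assume, so shares near 95% follow from the setting and check only the calculation. UMIs that gather in few cells and differences between mice were not simulated.

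Tools were Python 3.11.15, scanpy 1.11.5, numpy 2.4.6, scipy 1.17.1, leidenalg 0.10.2, Biopython 1.88, matplotlib 3.10.9, R 4.3.3 and edgeR 4.0.16.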

Additional observations from a re-analysis of the deposited data

Results flagged for a closer look

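In 3 cases a member at the minimum level in a cluster stood lower in KO cells of that cluster, with an interval below 0, while its ratio over all cells was above 0. Samd9l had a log2 ratio of -0.84 in cluster 9, monocyte-like cells led by histone genes (55 WT and 37 KO UMIs). Rsad2 had a log2 ratio of -0.72 in cluster 14, the erythroid-like cells (135 and 24 UMIs). Cxcl10 had a log2 ratio of -2.19 in cluster 16, neutrophil progenitor-like cells (44 and 9 UMIs), but a single WT cell held 42 of the 44. Without the richest cell of each library, a choice made after seeing the data, the ratio of Cxcl10 there turned to 1.1 (-1.70 to 4.57, from 2 and 4 UMIs), while that of Samd9l was -0.89 and that of Rsad2 -0.93. With genes under the minimum counted too, such cases numbered 7 among clusters that held at least 20 UMIs of the gene. The differences between clusters were not tested, since each genotype is 1 library.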

How the results depend on the processing

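The summed log2 ratio over all kept cells, 0.59, was 0.52 with TMM factors, 0.52 with a median of ratios, 0.57 as a mean over cells, 0.43 with clusters weighted alike, 0.65 without Bst2, Sp100 and Ifi203, and 0.48 without the 5% of cells richest in members. The count of members at least 1.5-fold higher, 21, lay between 14 and 24 over the alternatives. It was 14 without the richest 5% of cells, where 2.49% of all genes were, and 24 with no minimum, where 12.4% were. It was 17 with TMM factors, a median of ratios or clusters weighted alike, where 1.96%, 1.99% and 1.47% were; with clusters weighted alike, 15 of the 21 genes were among the 17. The median ratio, 0.65, was 0.54 without the richest 5% of cells. The log2 ratio of the median per 10000 UMIs in a cell, 0.46, was 0.32 after thinning and 0.57 for the mean. In HSC/MPP-like cells the sum was 0.64 at resolution 0.5, 0.54 at resolution 2, 0.62 with interferon genes kept in clustering, 0.61 with doublets and 0.48 without the richest cells. In erythroid-like cells it was 0.45 at either resolution, 0.48 with interferon genes, 0.52 by marker score and 0.46 with doublets. In basophil or mast cell-like cells it was 0.12 with interferon genes, 0.14 by marker score and 0.15 with doublets. In neutrophil progenitor-like cells it was 0.28 with doublets and 0.28 without the richest cells. In monocyte-like cells it was 0.50 at resolution 0.5, 0.56 with interferon genes, 0.49 by marker score, 0.56 as a mean over cells and 0.42 without the richest cells. In B cell-like cells it was 0.13 as a mean over cells. Ifi35 changed direction with TMM factors (-0.0025) and with a median of ratios (-0.0053). The lymphoid progenitor-like class had no value at resolution 0.5, with interferon genes kept or with doublets kept, nor had the B cell-like class without the richest cells. The causes were not tested. No paired analysis was possible because each genotype has 1 library, and for the same reason genotype, mouse, transplant and library cannot be told apart.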

Other observations

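Barcodes left out before the comparison gave similar sums. The 585 WT and 330 KO barcodes removed for few genes or high mitochondrial share stood at 876 and 1313 CPM, a log2 ratio of 0.58 (0.49 to 0.68). The 224 and 221 likely doublets stood at 831 and 1267 CPM, a ratio of 0.61 (0.57 to 0.65).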
